A study of Homo sapiens with 16 samples.

Results

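The 33 genes described here are recognised members of the integrated stress response, downstream of the transcription factor ATF4. They were chosen by name, by their known place in this pathway, but with earlier results of these data known. By symbol they were matched to 33 of the 58051 Ensembl gene identifiers measured. By role they comprise 10 transcription factors, 7 metabolic enzymes, 5 secreted factors or receptors and 11 other effectors. The filter on low values, a mean normalized count of at least 10 over all libraries, was passed by 32 of them, and the exception was NUPR1. RNA came from P493-6, one immortalised human B cell line that carries a tetracycline-repressible MYC transgene and an oestrogen-dependent EBNA2, the viral transcription factor behind its immortalisation. Cells at high MYC had neither doxycycline nor β-estradiol, whereas for medium MYC 1 µM β-estradiol and doxycycline at 0.1 µg/mL were added over 24 h ahead of treatment. Each culture was then kept for 24 h with DMSO vehicle or with 100 nM IMP1088, which blocks the N-myristoyltransferases NMT1 and NMT2. Each of these 4 groups had 4 libraries. MYC level, doxycycline and β-estradiol changed together, so their effects cannot be told apart. The sources do not say that the replicates were separate cultures, and the p-values then measure only the spread between these libraries.

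The integrated stress response starts when 1 of several kinases, which sense unfolded protein in the endoplasmic reticulum (ER), amino acid shortage, viral RNA or haem shortage, phosphorylates the initiation factor eIF2α. General translation falls, while translation of ATF4 mRNA, which is governed by upstream open reading frames, rises. ATF4 then pairs with partners such as C/EBP proteins at composite C/EBP-ATF response elements and activates genes for amino acid synthesis, transport and redox balance, as well as regulators that limit growth or favour cell death. Because ATF4 is controlled largely at translation, its mRNA and its protein need not move together, and no protein was measured here.

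Library depth lay between 8755296 and 13858534 reads. MYC itself followed the labels: its normalized count ran from 29693 to 34376 in DMSO libraries at high MYC and from 904 to 1022 at medium MYC. MYC was not constant within a level: with IMP1088 its count ran from 46843 to 48049 at high MYC and from 1328 to 1444 at medium MYC, above every DMSO library of the same level. The part of this rise in the responses to the inhibitor was not tested. The cell type label was checked against 8 B cell markers, all of which had a mean of at least 10, although CR2 had 0 reads in every library at high MYC. Among markers of other cells, the T cell genes CD3D and CD247 had group means between 0 and 1.27, the myeloid genes MPO and S100A8 between 0 and 0.753, and the epithelial and stromal genes KRT18 and DCN were at 0 in every library. Some other markers on these lists were detected, among them PDGFRB with a mean of 436 and TRAC with 132 in DMSO libraries at medium MYC. A mean of at least 10 was reached by 3 of 6 T cell, 2 of 6 myeloid and 3 of 8 epithelial and fibroblast markers.

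The promoter windows of these genes were examined first, because ATF4 acts through a known response element. RefSeq windows of 300 bases (250 before and 50 after the gene start, GRCh38.p14) were found for 28 of the 33 genes, and not for NUPR1, GPT2, PYCR1, VEGFA or EIF4EBP1. The core of the C/EBP-ATF response element, TGATGNAA on either strand, was present in 3 of these 28 windows (10.7%), against 3.67% of all 27305 windows and 1.65% of the 9888 windows of tested genes. The cAMP response element TGACGTCA was in 0 of 28, against 1.98% of all windows and 3.39% of those of tested genes. A match is a description of the letters, and a window without one says nothing on binding elsewhere. The 3 genes with a match are shown because each is a much-studied ATF4 target, with 30 bases around the core from RefSeq, 5′ to 3′ on the strand of the gene, and the core in capitals.
ATF3: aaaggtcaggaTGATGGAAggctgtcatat
ASNS: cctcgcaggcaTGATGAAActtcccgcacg
CHAC1: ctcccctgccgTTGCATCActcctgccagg
The stretches lie at chr1:212565205-212565234 (+), chr7:97872458-97872487 (-) and chr15:40953251-40953280 (+). The core begins at base -191 from the RefSeq start in ATF3, -68 in ASNS and -209 in CHAC1, where it is read on the opposite strand. In GENCODE release 29 the ASNS and CHAC1 stretches lie inside the span of the gene, whereas the ATF3 stretch lies upstream of the gene.

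The inhibitor raised most ATF4 target genes at medium MYC and few of them at high MYC. At medium MYC, 23 of the 32 tested genes rose and 3 fell at a limma adjusted p-value under 0.05, against 11.7% and 14.6% of all 13765 tested genes. At high MYC, 3 rose and 7 fell, 9.4% and 21.9%, near the shares over all genes of 10.5% and 16.3%. The high MYC counts by class below are to be read against these shares. Quantile normalization changed the all-gene split at high MYC from 1442 higher and 2247 lower to 1727 and 1770, with the same counts of 3 and 7 among these genes. At medium MYC the all-gene split of 1606 higher and 2012 lower turned to 1962 and 1658 with equal library totals and to 1963 and 1876 with quantile normalization, where 23 of these genes rose and 2 fell under each. CTH, CHAC1, ADM2 and GDF15 averaged under 10 outside the medium MYC IMP1088 group and passed the filter only through it. CTH, CHAC1 and ADM2 count among the genes that rose at medium MYC, and CTH among the called differences below. These calls are not independent of the filter. Changes and differences are given here on the log2 scale. The median change of the 32 was 0.46 at medium MYC and -0.07 at high MYC, against -0.01 and -0.02 over all genes. In bulk RNA, fewer cells of a type and less RNA per cell cannot be told apart.

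The difference between the 2 responses, tested as the interaction of inhibitor and MYC level, was called for 19 genes, each with the more positive response at medium MYC, and for 0 in the other direction. Over all genes the shares were 5.33% and 3.31%. The fitted difference was above 0 for all 32 genes, with a median of 0.51 against 0.02 over all genes. Some of these values were close to 0. The differences of MAP1LC3B (0.0024) and VEGFA (0.030) went as low as -0.032 and -0.0071 under alternative processing. The same libraries enter the 2 responses and their difference, so these counts are not separate evidence. Of the 19, 17 were also called higher at medium MYC, and the exceptions were ATF5 and NFIL3. By class, the difference was called for 7 of 9 transcription factors, 6 of 7 enzymes, 1 of 5 secreted factors and receptors and 5 of 11 other effectors. The summed level of the 8 B cell markers also moved. At high MYC it ranged from 40217 to 42582 in DMSO and from 33847 to 35046 with the inhibitor, and at medium MYC from 61676 to 65582 and from 55645 to 57305. The summed T cell markers ranged from 90.5 to 108 and from 57.2 to 79.9 at high MYC, and from 185 to 244 and from 156 to 190.1 at medium MYC. The epithelial and fibroblast markers ranged from 186 to 199 and from 136 to 161 at high MYC, and from 593 to 662 and from 514 to 561 at medium MYC, lower with the inhibitor in every library. The myeloid markers ranged from 118 to 136 and from 108 to 119 at high MYC, and from 263 to 291 and from 249 to 276 at medium MYC. The part of these marker levels in the results was not tested.

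**Figure D1:**
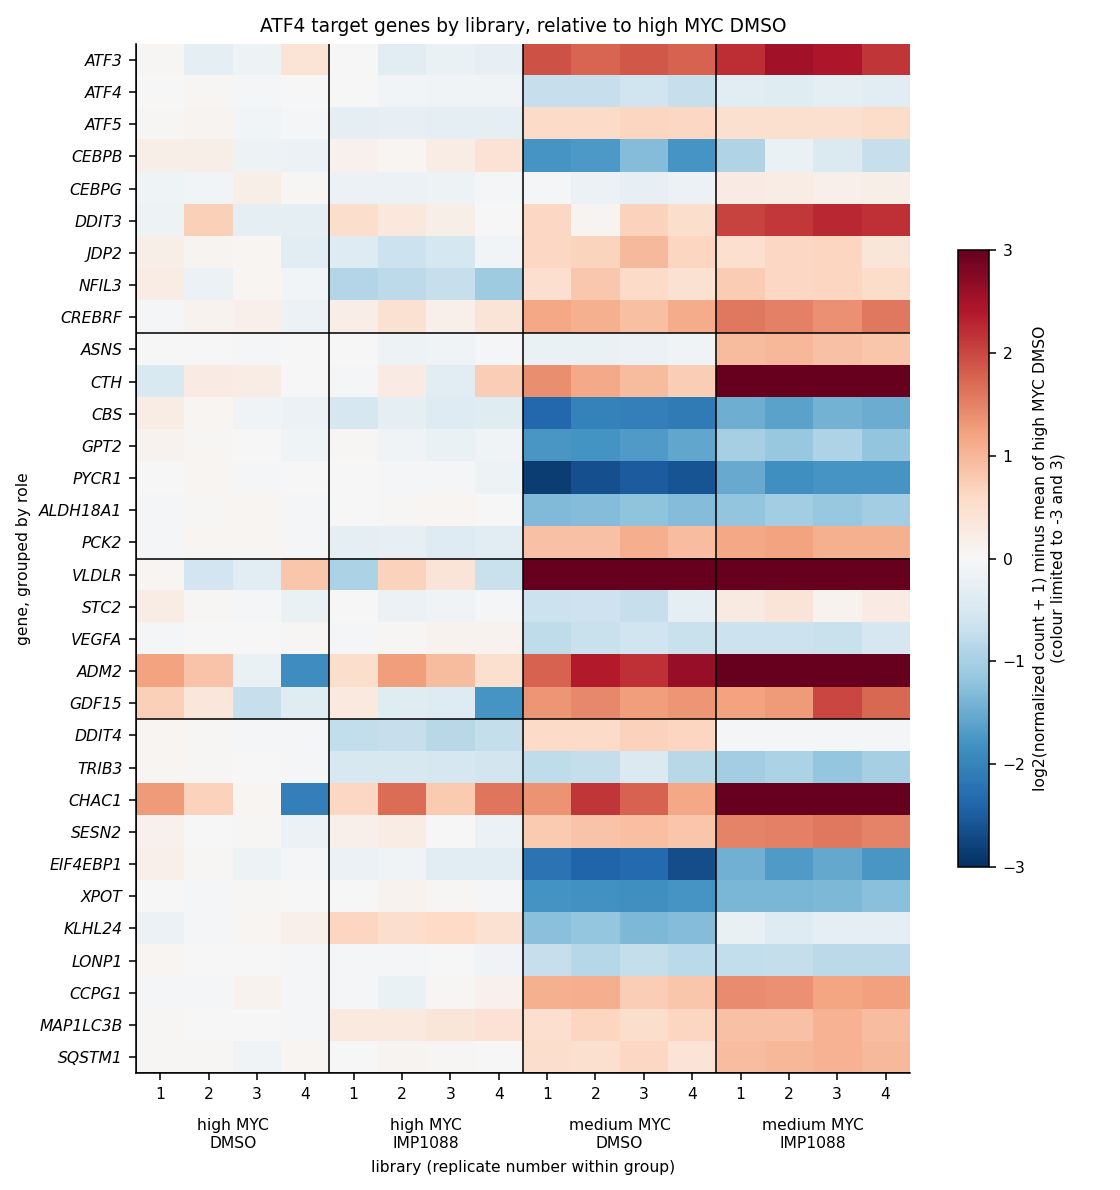
Each cell gives log2(normalized count + 1) of 1 gene in 1 library minus the mean of the 4 high MYC DMSO libraries, for the 32 tested genes (vertical axis, grouped by role) and 16 libraries (horizontal axis, by group); colour is limited to -3 and 3. The high MYC columns with and without IMP1088 look much alike for most genes, whereas CTH, ADM2, CHAC1 and VLDLR are at the upper end of the scale in every medium MYC IMP1088 column, VLDLR in the medium MYC DMSO columns too.

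The heat map by library shows 2 separate patterns. Genes such as PYCR1, EIF4EBP1 and XPOT were low throughout medium MYC and were raised part of the way back by the inhibitor. By contrast, ATF3 and SESN2 were higher at medium MYC and rose further. CHAC1 was called higher there and rose further too, but its DMSO libraries overlapped between MYC levels (8.21 to 17.1 at medium, 0 to 9.04 at high).

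Among the transcription factors, 6 of the 9 tested rose with the inhibitor at medium MYC (ATF3, ATF4, CEBPB, CEBPG, DDIT3 and CREBRF), and 1 fell. At high MYC 1 rose, CREBRF, and 3 fell, ATF5, JDP2 and NFIL3, against 10.5% and 16.3% of all tested genes. ATF4 (chromosome 22, 39519695 to 39522685), the central activator of the response, had normalized counts of 2479, 2499.9, 2356 and 2476 in the 4 high MYC DMSO libraries and 2439, 2299, 2273 and 2270.2 with IMP1088. At medium MYC, ATF4 stood at 1522, 1514, 1623 and 1521 in DMSO and 1956, 1915, 2029 and 1940.0 with IMP1088. All 4 inhibitor libraries lay above all 4 DMSO libraries at medium MYC, still below every high MYC library, whereas the values overlapped at high MYC. The log2 change was 0.34 (SE 0.03, adjusted p = 6.93e-08) at medium MYC, a 1.27-fold rise, and -0.08 (SE 0.03, adjusted p = 0.0794) at high MYC. The change at high MYC was called when high MYC DMSO replicate 3 or high MYC IMP1088 replicate 1 was left out (adjusted p = 0.0386 and 0.0308, limma). The difference in response was 0.42 (SE 0.05, adjusted p = 2.47e-06).

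DDIT3 (chromosome 12, 57516588 to 57521737), which encodes CHOP, a factor linked to cell death under prolonged ER stress, had normalized counts of 30.1, 56.2, 27.6 and 27.9 at high MYC in DMSO and 49.5, 42.1, 38.4 and 34.3 with IMP1088. At medium MYC, DDIT3 was at 52.2, 36.0, 55.1 and 49.2 in DMSO and 142, 150.0, 165 and 157 with the inhibitor. The 4 medium MYC inhibitor libraries were more than 2-fold above every other library, and the other 3 groups overlapped. The rise at medium MYC was 1.67 (SE 0.19, adjusted p = 7.82e-07), a 3.18-fold change, against 0.26 (SE 0.19, adjusted p = 0.346) at high MYC, and the difference was 1.41 (SE 0.27, adjusted p = 0.00145). High MYC DMSO replicate 2 stood above its group, and without it the change at high MYC was called too (adjusted p = 0.0243, limma).

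ATF3 (chromosome 1, 212565334 to 212620777), a stress-induced factor of the same bZIP family and one of the genes with the element core shown above, had normalized counts of 33.9, 27.0, 29.8 and 44.7 at high MYC in DMSO and 33.3, 26.6, 28.8 and 28.1 with IMP1088. At medium MYC, ATF3 reached 128, 115, 124 and 117 in DMSO and 157, 197, 182 and 150.2 with IMP1088, with no overlap between those groups. The changes were 0.49 (SE 0.14, adjusted p = 0.0112) at medium MYC and -0.19 (SE 0.14, adjusted p = 0.364) at high MYC. The difference in response, 0.68 (SE 0.20, adjusted p = 0.0345), was called. The call was lost with the replicate number as a block (adjusted p = 0.0599 over all libraries and 0.0527 nested in MYC level), in DESeq2 (0.0509), with no filter on low values (0.0622), and without any 1 of high MYC DMSO replicates 1 and 4, high MYC IMP1088 replicates 2, 3 and 4, medium MYC DMSO replicates 2 and 4, and medium MYC IMP1088 replicates 2 and 3 (adjusted p from 0.0513 to 0.0838, limma).

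CEBPB (chromosome 20, 50190734 to 50192689), a C/EBP partner of ATF4, had normalized counts of 95.7, 94.3, 75.1 and 73.8 at high MYC in DMSO and 91.4, 87.6, 97.7 and 113 with IMP1088. At medium MYC, CEBPB was at 24.0, 24.8, 33.3 and 23.8 in DMSO and 44.3, 73.5, 61.6 and 51.4 with IMP1088. The inhibitor groups were separate at medium MYC and overlapped at high MYC, with changes of 1.08 (SE 0.16, adjusted p = 2.08e-05) and 0.20 (SE 0.16, adjusted p = 0.379), and the difference was 0.88 (SE 0.22, adjusted p = 0.0147). CEBPG, the C/EBP family partner that forms heterodimers with ATF4, rose by 0.36 (SE 0.06, adjusted p = 8.67e-05) at medium MYC, from a mean of 431 ± 25.9 to 552 ± 15.2 (SD, n = 4). Its change at high MYC was -0.14 (SE 0.06, adjusted p = 0.0964), called without high MYC DMSO replicate 1 (adjusted p = 0.0351, limma) and after a GC correction (0.0269). The difference for CEBPG was 0.49 (SE 0.08, adjusted p = 0.000419).

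NFIL3 (chromosome 9, 91409045 to 91423862), a bZIP repressor known for its role in lymphocyte development, fell at high MYC. Its normalized counts at high MYC were 74.6, 56.2, 66.2 and 60.4 in DMSO and 34.4, 36.6, 39.3 and 30.1 with IMP1088, with no overlap. At medium MYC, NFIL3 was at 90.7, 113, 96.3 and 88.6 in DMSO and 109.5, 99.3, 101 and 93.8 with IMP1088, and those groups overlapped. The changes were -0.85 (SE 0.12, adjusted p = 1.73e-05) and 0.06 (SE 0.12, adjusted p = 0.772), and the difference was 0.91 (SE 0.17, adjusted p = 0.00128).

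ATF5, an ATF4 relative that is itself translated under eIF2α phosphorylation, fell at both levels, from a mean of 1904 ± 93.9 to 1570.2 ± 25.3 at high MYC and from 2888 ± 81.8 to 2691 ± 59.4 at medium MYC (SD, n = 4). The changes were -0.28 (SE 0.03, adjusted p = 2.28e-06) and -0.10 (SE 0.03, adjusted p = 0.0292), and the difference was 0.17 (SE 0.05, adjusted p = 0.023). The call at medium MYC was lost under quantile normalization (adjusted p = 0.12), equal library totals (0.0932), no filter (0.0629), no mean trend (0.0661) and the GC correction (0.642), and without medium MYC DMSO replicate 3 or 4 or medium MYC IMP1088 replicate 1, 2 or 3 (0.0654 to 0.0804, limma). The call of the difference was lost without high MYC DMSO replicate 2, medium MYC DMSO replicate 1 or 2 or medium MYC IMP1088 replicate 4 (adjusted p from 0.0534 to 0.0577, limma), and under quantile normalization (0.0504), no filter (0.0516) and no mean trend (0.0678).

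JDP2, an AP-1 repressor, fell at high MYC, with -0.41 (SE 0.13, adjusted p = 0.0223). Its change at medium MYC was -0.19 (SE 0.13, adjusted p = 0.303). The JDP2 call was lost without high MYC DMSO replicate 1 or 2 or high MYC IMP1088 replicate 2 or 3 (adjusted p from 0.0568 to 0.0836, limma) and when the high MYC groups were fitted alone (0.0809). CREBRF, a regulator of CREB3 proteins, rose at both levels, by 0.30 (SE 0.09, adjusted p = 0.0134) and 0.45 (SE 0.09, adjusted p = 0.000451). The CREBRF call at high MYC was lost without high MYC DMSO replicate 4 or high MYC IMP1088 replicate 2 (adjusted p from 0.0553 to 0.0554, limma), after the GC correction (0.0732) and with the high MYC groups fitted alone (0.0596). NUPR1, a small stress-induced chromatin protein, had between 0 and 3 reads in every library, at or under the floor of 3 reads, so no fold is given.

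**Figure D2:**
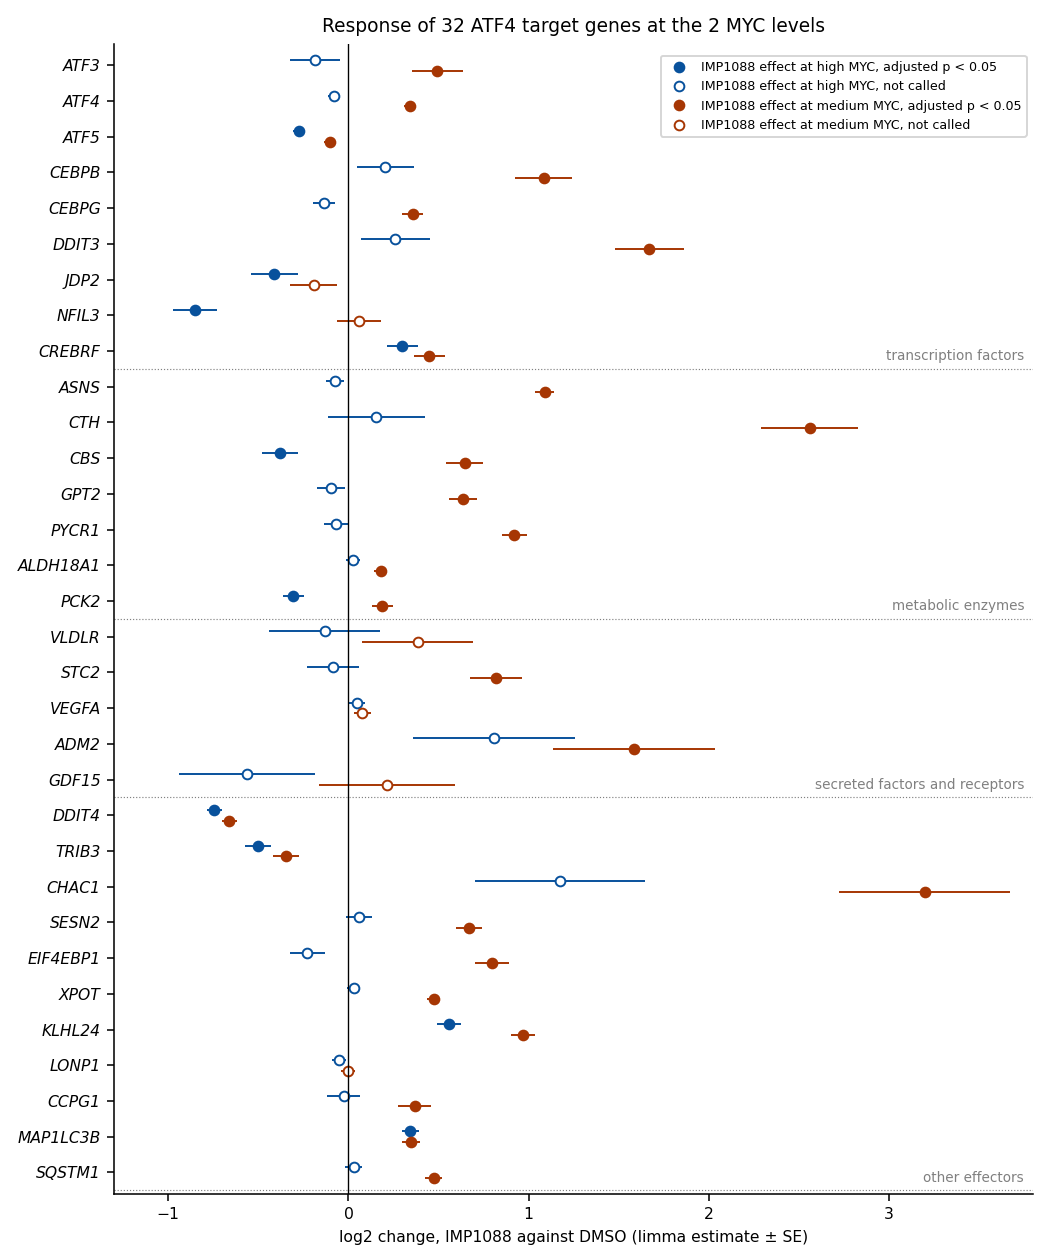
Points give the limma log2 change of IMP1088 against DMSO (horizontal axis, with SE bars) for each of the 32 tested genes (vertical axis, by role), blue at high MYC and brown at medium MYC; filled points have an adjusted p-value under 0.05. In the plot the brown point lies at or to the right of the blue one for every gene, and the spacing is widest for CTH (difference 2.41) and CHAC1 (2.02).

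All 7 metabolic enzymes rose with the inhibitor at medium MYC, whereas at high MYC 0 rose and 2 fell. The all-gene shares at high MYC were 10.5% and 16.3%. The plot of responses by level shows their medium MYC changes running from 0.18 for ALDH18A1 to 2.56 for CTH. ASNS (chromosome 7, 97852118 to 97872542), which makes asparagine and is a standard reporter of ATF4 activity, had normalized counts of 302, 305, 296 and 301 at high MYC in DMSO and 299, 273, 278 and 294 with IMP1088. At medium MYC, ASNS was at 262, 262, 265 and 281 in DMSO and 583, 605, 558 and 536 with IMP1088. The medium MYC inhibitor libraries lay above every other library. The rise was 1.09 (SE 0.05, adjusted p = 1.13e-12), 2.13-fold, against -0.07 (SE 0.05, adjusted p = 0.317) at high MYC, with a difference of 1.16 (SE 0.07, adjusted p = 7.85e-10).

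The transsulfuration enzymes CBS and CTH, which turn homocysteine into cysteine, both had a called difference. CBS (chromosome 21, 43053191 to 43076943) had normalized counts of 259, 230.2, 205 and 198 at high MYC in DMSO and 157, 182, 170.2 and 174 with IMP1088. At medium MYC, CBS was at 42.8, 53.9, 52.5 and 50.1 in DMSO and 79.2, 72.5, 82.5 and 78.6 with IMP1088. Neither pair of groups overlapped, and the directions were opposite, with -0.38 (SE 0.10, adjusted p = 0.0074) at high MYC and 0.64 (SE 0.10, adjusted p = 4.44e-05) at medium MYC. The difference for CBS was 1.02 (SE 0.14, adjusted p = 4.61e-05). CTH, given in every library by a choice made after its values were seen, had 3.01, 5.62, 5.52 and 4.47 at high MYC in DMSO and 4.30, 5.55, 3.49 and 8.32 with IMP1088, from 4 to 8 reads. At medium MYC, CTH was at 13.6, 11.1, 9.63 and 8.21 in DMSO and 51.3, 75.5, 75.2 and 67.6 with the inhibitor, without overlap. That rise was 2.56 (SE 0.27, adjusted p = 2.55e-07), 5.90-fold on the log2(value + 1) scale, and the difference was 2.41 (SE 0.38, adjusted p = 0.000205).

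The proline synthesis enzymes ALDH18A1 and PYCR1 had lower counts at medium MYC in each condition and rose with the inhibitor at medium MYC. PYCR1 (chromosome 17, 81932384 to 81942412), which forms proline, had normalized counts of 1112, 1146, 1062 and 1114 at high MYC in DMSO and 1098, 1067, 1067 and 997 with IMP1088. At medium MYC, PYCR1 was at 152, 177, 196 and 184 in DMSO and 386, 309.9, 325 and 324 with IMP1088, with no overlap there, whereas the high MYC groups overlapped. The change was 0.92 (SE 0.07, adjusted p = 1.68e-09) at medium MYC and -0.07 (SE 0.07, adjusted p = 0.519) at high MYC, and the difference was 0.99 (SE 0.10, adjusted p = 5.51e-07). ALDH18A1, which makes the precursor upstream, rose by 0.18 (SE 0.04, adjusted p = 0.001) at medium MYC. Its difference was 0.15 (SE 0.05, adjusted p = 0.0797), called without high MYC DMSO replicate 4, medium MYC DMSO replicate 3 or medium MYC IMP1088 replicate 1 (adjusted p from 0.0274 to 0.0498, limma) and in edgeR with TMM (0.0496).

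GPT2 (chromosome 16, 46884378 to 46931297), the mitochondrial alanine transaminase, had normalized counts of 377, 357, 349 and 319 at high MYC in DMSO and 357, 326, 303 and 323 with IMP1088. At medium MYC, GPT2 was at 103, 100.2, 108 and 117 in DMSO and 175, 159, 183 and 152 with IMP1088. DMSO and inhibitor groups were separate at medium MYC and overlapped at high MYC. GPT2 rose by 0.64 (SE 0.08, adjusted p = 1.86e-06) there, changed by -0.10 (SE 0.08, adjusted p = 0.393) at high MYC, and had a difference of 0.73 (SE 0.11, adjusted p = 0.000103). PCK2 (chromosome 14, 24094053 to 24110598), the mitochondrial phosphoenolpyruvate carboxykinase, was the other enzyme called in opposite directions. PCK2 counts at high MYC were 227, 243, 243 and 226 in DMSO and 195, 197, 179.8 and 186 with IMP1088, without overlap. At medium MYC, PCK2 was at 432, 429, 499.7 and 446 in DMSO and 527, 538, 496 and 495 with IMP1088, where DMSO replicate 3 overlapped the inhibitor group. The changes were -0.31 (SE 0.06, adjusted p = 0.000436) and 0.19 (SE 0.06, adjusted p = 0.0203), and the difference was 0.50 (SE 0.08, adjusted p = 0.000357). The rise at medium MYC was lost without medium MYC DMSO replicate 1 or 2 or medium MYC IMP1088 replicate 1 or 2 (adjusted p from 0.0548 to 0.0694, limma).

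**Figure D3:**
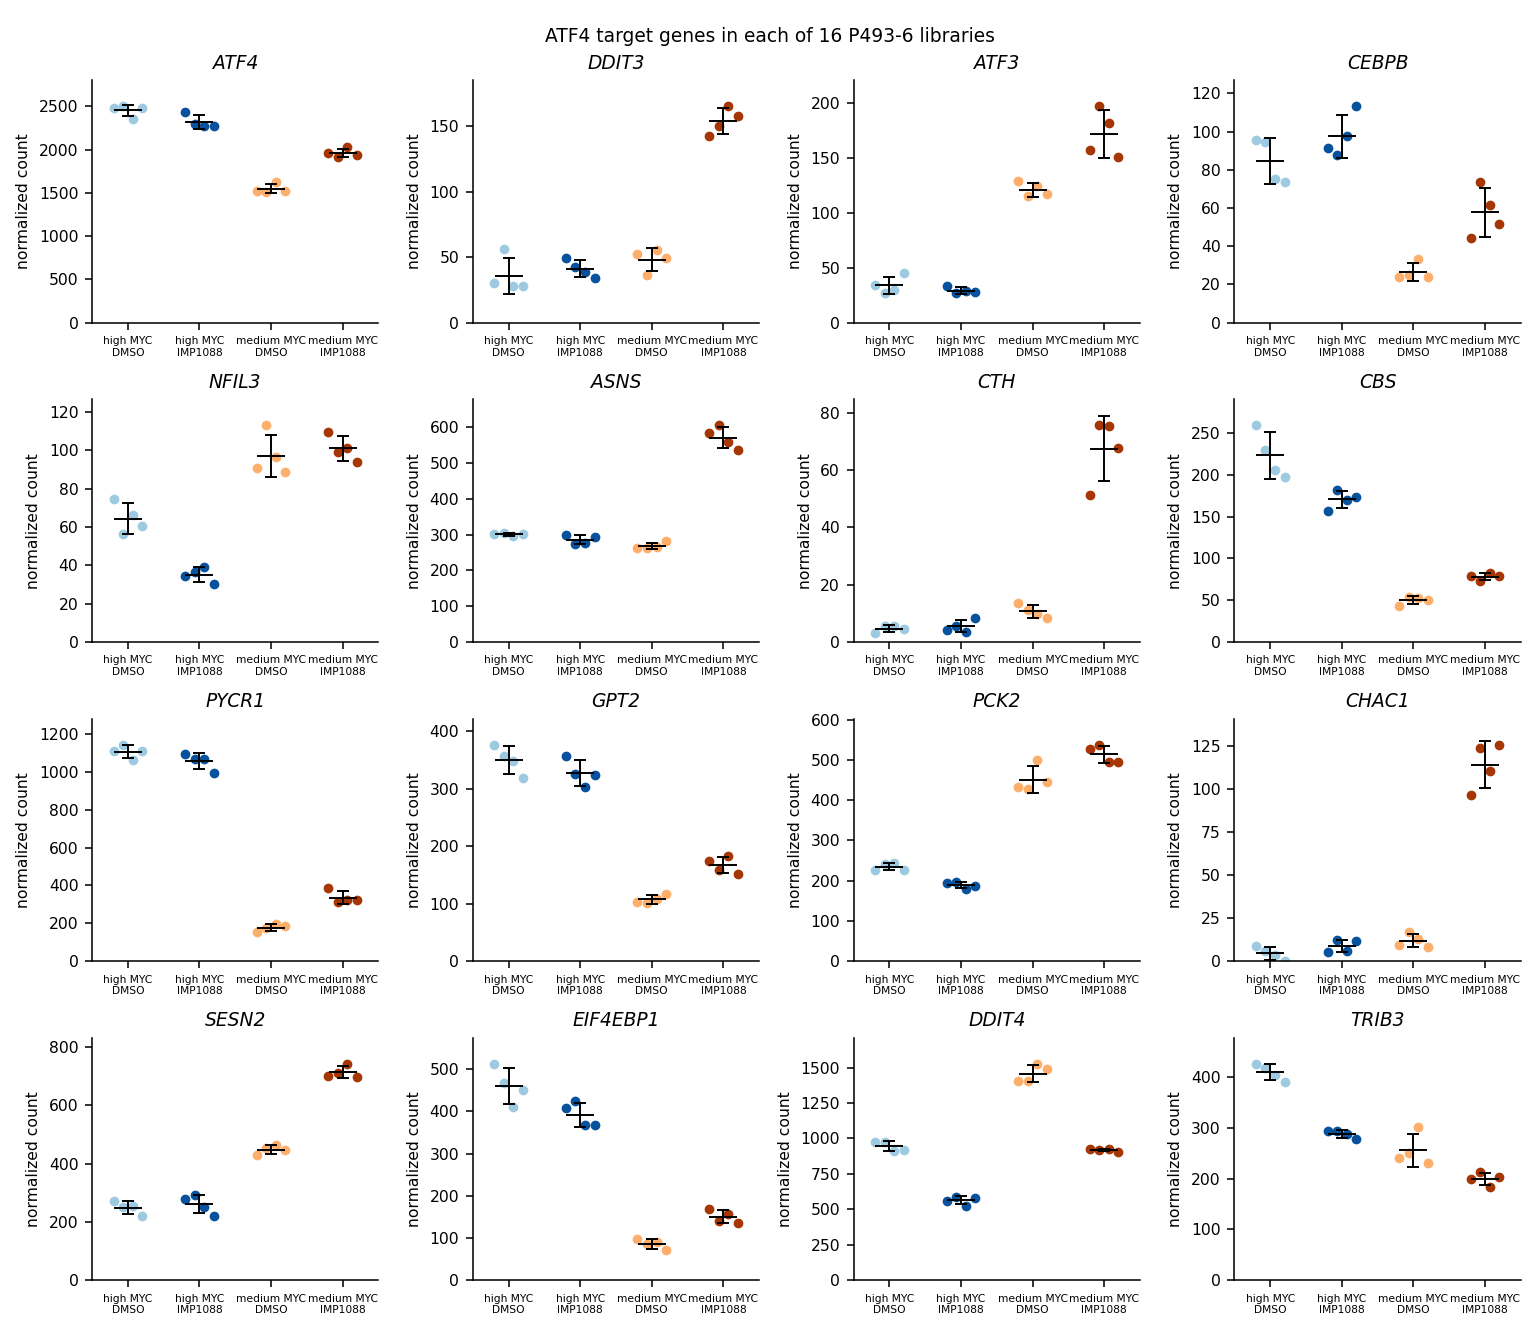
Normalized counts (vertical axes, each from 0) of 16 genes in the 4 groups (horizontal axes); points are the 4 libraries of a group in replicate order, and black marks are the mean ± SD. DDIT3, ASNS, CTH, CHAC1 and SESN2 stand apart in the medium MYC IMP1088 group, CBS and PCK2 move in opposite directions at the 2 MYC levels, and DDIT4 and TRIB3 fall at both.

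The plot of counts by group shows these enzymes beside the transcription factors above and the effectors described next. Of the 5 secreted factors and receptors, 2 rose at medium MYC, STC2 and ADM2. At high MYC 0 rose and 0 fell, where 10.5% and 16.3% of all tested genes did. None had both a called difference and a mean of at least 50. STC2, a secreted glycoprotein that restrains calcium entry and growth factor processing, rose from a mean of 27.9 ± 3.85 to 49.8 ± 3.98 at medium MYC and went from 41.8 ± 5.56 to 39.1 ± 1.99 at high MYC (SD, n = 4). The changes were 0.82 (SE 0.14, adjusted p = 0.000159) and -0.09 (SE 0.14, adjusted p = 0.712), and the difference was 0.90 (SE 0.20, adjusted p = 0.00579). ADM2, a peptide hormone of the calcitonin family, had normalized counts from 11.5 to 21.3 in DMSO and 43.4 to 56.4 with IMP1088 at medium MYC, a rise of 1.59 (SE 0.45, adjusted p = 0.0111). At high MYC ADM2 ranged from 0 to 7.53 and 4.16 to 7.76. Its call at medium MYC was lost at a pseudocount of 0.1 (adjusted p = 0.176, limma). Its difference, 0.78 (SE 0.63, adjusted p = 0.534), was called at a pseudocount of 10 (0.00718), and its change at high MYC was called without high MYC DMSO replicate 1 (0.0468), where it was 1.21. Without high MYC DMSO replicate 4, in which ADM2 had 0 reads, the change at high MYC was 0.18 and the difference 1.40 (adjusted p = 0.728 and 0.0511, limma). The ADM2 difference was 0.37 without replicate 1 and 0.49 without replicate 2 of that group. VEGFA, the vascular growth factor, changed by 0.08 at medium MYC and 0.05 at high MYC (limma adjusted p = 0.266 and 0.532). GDF15, a stress hormone, had 0.22 and -0.56 (limma adjusted p = 0.731 and 0.299) at means of at most 20.1. The value at high MYC was -0.16 without high MYC IMP1088 replicate 4, -0.32 without high MYC DMSO replicate 1 and -0.84 without high MYC IMP1088 replicate 1. VLDLR, a lipoprotein receptor, had 0.38 (SE 0.31, adjusted p = 0.4) at medium MYC, where its groups (72.8 to 82.4 and 96.4 to 112) did not overlap, and the change was called when the medium MYC groups were fitted alone (adjusted p = 0.00983, limma).

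Of the 11 other effectors, 8 rose and 2 fell at medium MYC, against 2 and 2 at high MYC. All-gene shares were 11.7% and 14.6% at medium MYC and 10.5% and 16.3% at high MYC. CHAC1, which degrades glutathione and is typical of the ATF4 and CHOP arm, had the largest fitted change of the 32 genes at medium MYC, and is given in every library by a choice made after its values were seen. At medium MYC, CHAC1 was at 9.39, 17.1, 13.1 and 8.21 in DMSO and 96.7, 124, 111 and 126 with IMP1088, which is 83 to 125 reads against 9 to 20. At high MYC, CHAC1 had 9.04, 5.62, 3.31 and 0 in DMSO, 12 reads at most and 0 in replicate 4, and 5.38, 12.2, 6.11 and 11.4 with IMP1088. The medium MYC inhibitor libraries were above every other library. The rise was 3.20 (SE 0.47, adjusted p = 2.33e-05) at medium MYC, 9.18-fold on the log2(value + 1) scale, and 1.18 (SE 0.47, adjusted p = 0.0721) at high MYC. The difference of 2.02 (SE 0.67, adjusted p = 0.0671) was not called, but was called in edgeR with TMM (adjusted p = 0.0112), in DESeq2 (0.000277), under quantile normalization (0.00418), at a pseudocount of 10 (6.3e-06), after the GC correction (0.0393) and without high MYC DMSO replicate 4 (0.000348, limma). At high MYC the change was called without high MYC DMSO replicate 1 (0.013, limma) and after the GC correction (0.0411), whereas without replicate 4 of that group, which had 0 reads, it was 0.49 (adjusted p = 0.291, limma).

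SESN2 (chromosome 1, 28259527 to 28282491), a leucine sensor that restrains the growth kinase mTORC1, had normalized counts of 270.4, 252, 256 and 219 at high MYC in DMSO and 277, 292, 250.5 and 221 with IMP1088. At medium MYC, SESN2 was at 429, 454, 463 and 445 in DMSO and 701, 710.3, 742 and 696 with IMP1088. Each medium MYC inhibitor library was above all others. The changes were 0.67 (SE 0.07, adjusted p = 4.2e-07) at medium MYC and 0.06 (SE 0.07, adjusted p = 0.611) at high MYC, and the difference was 0.61 (SE 0.10, adjusted p = 0.000409). EIF4EBP1 (chromosome 8, 38030341 to 38060365), which encodes the translation repressor 4E-BP1, had 513, 468, 411 and 450.4 at high MYC in DMSO and 409, 425, 368 and 369 with IMP1088. At medium MYC, EIF4EBP1 was at 98.0, 85.6, 90.1 and 71.4 in DMSO and 169, 140.1, 157 and 135 with IMP1088, separate groups that both lay under every high MYC library. It changed by 0.80 (SE 0.09, adjusted p = 1.45e-06) and -0.23 (SE 0.09, adjusted p = 0.0827), with a difference of 1.02 (SE 0.13, adjusted p = 2.28e-05). The change at high MYC was called in edgeR with TMM (adjusted p = 0.0243), with the replicate block over all libraries (0.0417), with the high MYC groups fitted alone (0.0483) and without high MYC DMSO replicate 3 (0.0444, limma).

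XPOT (chromosome 12, 64404350 to 64451127), the exporter of tRNA from the nucleus, had normalized counts of 2886, 2809.8, 2917 and 2824 at high MYC in DMSO and 2841, 3061, 2950.5 and 2813 with IMP1088. At medium MYC, XPOT was at 827, 808, 794 and 839 in DMSO and 1107, 1109.6, 1126 and 1194 with IMP1088, where the groups were separate, and they overlapped at high MYC. The changes were 0.47 (SE 0.03, adjusted p = 7.95e-10) and 0.03 (SE 0.03, adjusted p = 0.6), and the difference was 0.44 (SE 0.05, adjusted p = 1.96e-06). SQSTM1 (chromosome 5, 179806398 to 179838078), the autophagy receptor p62, had 557, 554, 502 and 561 at high MYC in DMSO and 534, 573, 560.3 and 547 with IMP1088. At medium MYC, SQSTM1 was at 780.2, 753, 840.1 and 725 in DMSO and 1029, 1077, 1121 and 1072 with IMP1088. Its medium MYC groups were separate and its high MYC groups overlapped, with changes of 0.47 (SE 0.05, adjusted p = 1.56e-07) and 0.03 (SE 0.05, adjusted p = 0.719) and a difference of 0.44 (SE 0.07, adjusted p = 0.000137).

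DDIT4 and TRIB3 are usually counted as ATF4 targets but fell with the inhibitor at both MYC levels, and they are given in every library by a choice made after their values were seen. DDIT4, an mTORC1 inhibitor also known as REDD1 that several stress pathways control, had normalized counts of 978, 974, 908 and 922 at high MYC in DMSO and 562, 589, 526 and 579 with IMP1088. At medium MYC, DDIT4 was at 1404, 1406, 1526 and 1487 in DMSO and 926, 918, 924 and 906 with IMP1088. TRIB3, a pseudokinase that feeds back on ATF4 and CHOP, had 426, 418, 404 and 391 at high MYC in DMSO and 295, 294, 287 and 279 with IMP1088. At medium MYC, TRIB3 was at 239.9, 251, 302 and 231 in DMSO and 199, 213, 184 and 204 with IMP1088. For both genes every inhibitor library was below every DMSO library of the same MYC level. DDIT4 changed by -0.74 (SE 0.04, adjusted p = 2.22e-11) and -0.66 (SE 0.04, adjusted p = 7.1e-11), and TRIB3 by -0.50 (SE 0.07, adjusted p = 1.68e-05) and -0.35 (SE 0.07, adjusted p = 0.000834). Their differences in response were 0.08 (SE 0.06, adjusted p = 0.462) and 0.16 (SE 0.10, adjusted p = 0.414).

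MAP1LC3B and KLHL24 rose at both levels. MAP1LC3B, the autophagosome protein LC3B, had changes of 0.34 (SE 0.05, adjusted p = 1.63e-05) and 0.35 (SE 0.05, adjusted p = 1.32e-05), with a difference of 0.0024 (limma adjusted p = 0.99). KLHL24, a ubiquitin ligase adaptor, rose from a mean of 464 ± 44.4 to 681 ± 39.2 at high MYC and from 192 ± 10.8 to 376 ± 19.6 at medium MYC (SD, n = 4). Those changes were 0.56 (SE 0.07, adjusted p = 1.57e-06) and 0.97 (SE 0.07, adjusted p = 3.45e-10), and the difference was 0.41 (SE 0.09, adjusted p = 0.00637). CCPG1, a receptor for autophagy of the ER, rose by 0.37 (SE 0.09, adjusted p = 0.00517) at medium MYC and had -0.03 (SE 0.09, adjusted p = 0.869) at high MYC. The CCPG1 difference was 0.39 (SE 0.13, adjusted p = 0.0705), called without high MYC IMP1088 replicate 4 or medium MYC DMSO replicate 2 (adjusted p from 0.048 to 0.0481, limma) and after the GC correction (0.0359). LONP1, a mitochondrial protease, had -0.0039 and -0.05 at medium and high MYC (limma adjusted p = 0.958 and 0.371).

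Between the MYC levels the genes moved in both directions. In DMSO, 17 of 32 were higher and 15 lower at medium MYC, 53.1% and 46.9%, where 38.9% and 37.3% of all tested genes were called. Under IMP1088, 20 were higher and 12 lower, against 39.7% and 37.8% of all genes. Since the groups are shared with the comparisons above, these are the same values read the other way. CTH, CHAC1, ADM2 and GDF15, which passed the filter only through the medium MYC IMP1088 group, are among the 20 higher under IMP1088. Their calls there are not independent of the filter. The median of the 32 in DMSO, 0.49, reversed to -0.42 among the 22 members whose mean reached 100, so it gives no common direction. The summed level of the 8 epithelial and fibroblast markers, 3 of them with a mean of at least 10, ran from 186 to 199 at high and 593 to 662 at medium MYC in DMSO. That of the 6 T cell markers ran from 90.5 to 108 and 185 to 244, and that of the 6 myeloid markers from 118 to 136 and 263 to 291. Their part in the differences between MYC levels was not tested.

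The genes lower at medium MYC in DMSO included 5 of 7 enzymes, led by PYCR1 at -2.64 (SE 0.07, adjusted p = 6.78e-19), CBS at -2.14 (SE 0.10) and GPT2 at -1.70 (SE 0.08). EIF4EBP1 at -2.41 (SE 0.09), XPOT at -1.81 (SE 0.03), CEBPB at -1.64 (SE 0.16) and ATF4 itself at -0.67 (SE 0.03, adjusted p = 4.97e-14) were also lower. Higher were 6 of 9 transcription factors, among them ATF3 at 1.83 (SE 0.14, adjusted p = 9.09e-11), and VLDLR at 3.30 (SE 0.31, adjusted p = 2.54e-09), CHAC1 at 1.60 (SE 0.47; 0.92 without high MYC DMSO replicate 4), PCK2 at 0.94 (SE 0.06) and SESN2 at 0.85 (SE 0.07). ASNS, CEBPG and STC2 were lower at medium MYC in DMSO (-0.17, -0.16 and -0.57) and higher there under the inhibitor (0.99, 0.34 and 0.34). Of the 12 genes lower at medium MYC in DMSO that the inhibitor raised there, the other 9 stayed below their high MYC level under the inhibitor. The calls of CEBPG, DDIT3, CTH and CHAC1 in DMSO were lost under quantile normalization (adjusted p = 0.0511, 0.227, 0.383 and 0.111, limma). That of CEBPG was also lost without high MYC DMSO replicate 3 or 4 or medium MYC DMSO replicate 3 (adjusted p from 0.0576 to 0.113, limma). That of DDIT3 was lost without high MYC DMSO replicate 1, 3 or 4 or medium MYC DMSO replicate 1, 3 or 4 (0.0548 to 0.0915, limma) and in DESeq2 (0.0641). Both were lost with the DMSO groups fitted alone (0.0576 for CEBPG and 0.072 for DDIT3). Without high MYC DMSO replicate 3 the CEBPG change was -0.10. Under IMP1088 the call of STC2 was lost without high MYC IMP1088 replicate 2 or 3 or medium MYC IMP1088 replicate 1, 2 or 4 (adjusted p from 0.0584 to 0.0978, limma), in DESeq2 (0.148), under quantile normalization (0.512), with no filter (0.0776), with the replicate block nested in MYC level (0.0579) and after the GC correction without and with that block (0.0872 and 0.111).

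Genes outside the 33 that act around ATF4 were examined as lists, each given by its counts beside the all-gene shares above. These lists too were chosen with earlier results of these data known. Of 10 amino acid transporters, 7 rose and 0 fell at medium MYC, with a median of 0.41, against 0 and 2 at high MYC. The difference was called for 8, with SLC7A5 at 0.88 (SE 0.07, adjusted p = 2.55e-08), its heavy chain partner SLC3A2 at 0.70 (SE 0.06, adjusted p = 6.8e-08) and the glutamine transporter SLC1A5 at 0.72 (SE 0.07, adjusted p = 4.72e-07). The glycine transporter SLC6A9 and the cystine transporter SLC7A11, named after their values were seen, had 3.07 (SE 0.26, adjusted p = 1.07e-08) and 0.04 (SE 0.10, adjusted p = 0.82) at medium MYC. Of 7 serine and one-carbon enzymes, 6 rose at medium MYC and 0 rose and 2 fell at high MYC, and the difference was called for 6, among them PHGDH, the entry enzyme of serine synthesis, at 0.85 (SE 0.07, adjusted p = 2.61e-08). Of 12 aminoacyl-tRNA synthetases, 10 rose at medium MYC and 4 fell at high MYC. Their called differences numbered 9, with GARS1 at 0.56, WARS1 at 0.54 and AARS1 at 0.39. GARS1 changed by 0.47 at medium MYC and -0.09 at high MYC, WARS1 by 0.27 and -0.27, and AARS1 by 0.04 and -0.35. AARS1 was not called at medium MYC (limma adjusted p = 0.292) but fell at high MYC (limma adjusted p = 2.16e-09). The fall of GARS1 at high MYC (limma adjusted p = 0.0467) was lost in 18 of 32 alternatives.

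ER chaperones and degradation factors, which report the unfolded protein response, rose at medium MYC in 17 of 17 cases, with a median of 0.68, and in 6 at high MYC, where 2 fell. Of these 2 falls, that of CALR (-0.08, limma adjusted p = 0.0279) was lost in 14 of 32 alternatives. The difference was called for 17 of 17, including the ER membrane protein HERPUD1 at 1.21 (SE 0.06, adjusted p = 4.19e-11). Of 15 genes of the eIF2α arm itself (kinases, phosphatase subunits, eIF2B and the mitochondrial relay), 5 rose and 1 fell at medium MYC, and 4 and 1 at high MYC. EIF2AK3, which encodes the ER stress kinase PERK, rose by 0.62 (SE 0.04, adjusted p = 5.38e-11) at medium MYC and 0.26 (SE 0.04, adjusted p = 1.8e-05) at high MYC, with a difference of 0.36 (SE 0.05, adjusted p = 0.000108). PPP1R15A, which encodes the eIF2α phosphatase subunit GADD34, rose by 0.65 (SE 0.07, adjusted p = 1.4e-07) and 0.21 (SE 0.07, adjusted p = 0.0202), with a difference of 0.44 (SE 0.09, adjusted p = 0.00368). Its call at high MYC was lost without high MYC DMSO replicate 3 or high MYC IMP1088 replicate 2 (adjusted p = 0.0797 and 0.0545, limma), in DESeq2 (0.0936) and with the high MYC groups fitted alone (0.0551). The haem-sensing kinase gene EIF2AK1 had a difference of 0.19 (SE 0.05, adjusted p = 0.0279), which was lost in 10 of 32 alternatives (adjusted p at most 0.0684), among them leaving out high MYC DMSO replicate 1, high MYC IMP1088 replicate 1, 2 or 4, medium MYC DMSO replicate 2 or 4, or medium MYC IMP1088 replicate 3 or 4.

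**Figure D4:**
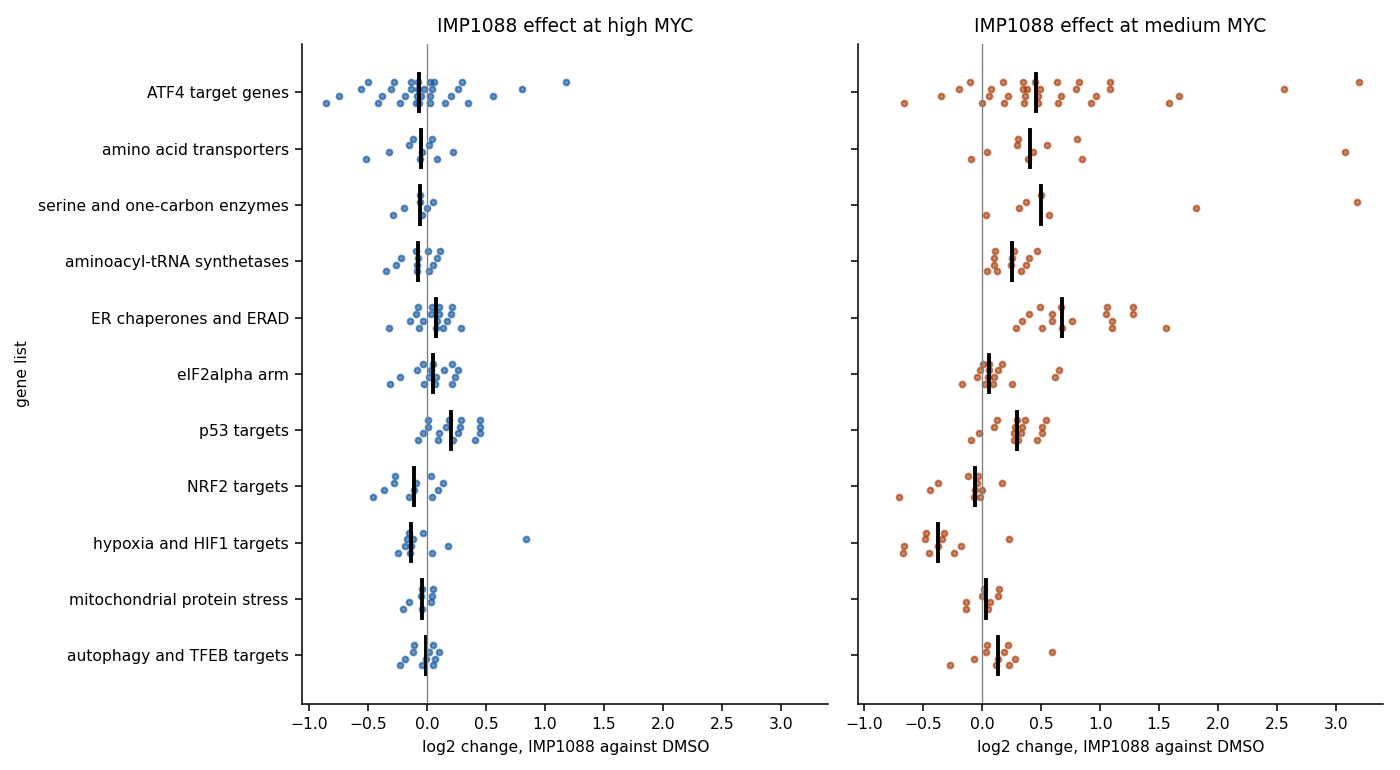
Each point is the log2 change of 1 gene with IMP1088 against DMSO (horizontal axes; left panel high MYC, right panel medium MYC), for the 32 ATF4 target genes and 10 other lists (vertical axis), with black bars at the medians. The medians of the upper 5 lists lie between 0.25 and 0.68 at medium MYC and between -0.08 and 0.07 at high MYC.

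The plot of list responses sets these genes beside other stress pathways, whose counts are given with the other observations. Some of the 33 genes are uncertain in counting, because the use of strand is not given in the sources used here. Exons of 13 overlap those of another gene, 12 of them on the opposite strand, among them ATF5 with NUP62, DDIT3 with MARS and MBD6, SQSTM1 with MRNIP, CCPG1 with PIGB, MAP1LC3B with FBXO31 and LONP1 with RPL36. ASNS shares exon sequence with an unnamed transcript on its own strand, and PYCR1 with MYADML2. CBS has a near-identical copy, CBSL, whose normalized counts ran from 0 to 21.2. Named pseudogenes exist for ATF4, ASNS, EIF4EBP1, XPOT, MAP1LC3B and SQSTM1.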

How the data were processed

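RNA from 16 libraries of the P493-6 line was measured as expression per Ensembl gene. The authors deposited 1 table of normalized counts, a signal in which each read count is divided by a size factor of its library. The submitters' processing notes name STAR 2.5.2a, RSEM 1.2.31, DESeq2 1.16.1 and GRCh38 without their roles. The annotation and the use of strand are not given in the sources used here. All values were whole multiples of 1 step per library (tolerance 0.001 of a read), and dividing by it gave whole reads, 8755296 to 13858534 per library. The reciprocals of the steps equalled median-of-ratios factors, from 0.858 to 1.33. As RSEM estimates counts, these reads may be rounded estimates. Depth limits genes of a few reads, and counts without molecular identifiers are not independent molecules.

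Groups came from the sample labels. limma 3.58.1 in R 4.3.3 was fitted to log2(value + 1) of the 13765 genes whose mean reached 10, with a mean trend, 4 group means and 12 residual degrees of freedom. Tests were two-sided, p-values were Benjamini-Hochberg adjusted over all tested genes, and calls were made under 0.05. A log2 change is on the log2(value + 1) scale and understates the change of low genes. Comparisons were inhibitor against vehicle at each MYC level, the difference of these responses (medium minus high), and medium against high MYC in each condition. Values in every library are given for ATF4, for up to 4 genes per role with the largest called difference in response at a mean of at least 50, and for genes called in opposite directions at the 2 levels. Of each other list, up to 3 genes with the smallest p for the difference are named. The genes, their roles and the lists were chosen with earlier results of these data known.

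Alternatives were other scalings, pseudocounts, filters, no mean trend, fits of the compared groups alone, replicate blocks, DESeq2 1.42.0 and edgeR 4.0.16 run on recovered reads, and leaving out each library. A correction for transcript GC content, alone and with the replicate block, was added after the data were seen. The fit was tested on simulated counts. Positions are from GENCODE release 29 and promoter windows from RefSeq (GRCh38.p14).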

Additional observations from a re-analysis of the deposited data

Results flagged for a closer look

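The response to the inhibitor differed between the MYC levels, by the interaction term of limma at an adjusted p-value under 0.05, for 19 of the 32 tested ATF4 target genes. The log2 differences, medium minus high MYC, were CTH 2.41, DDIT3 1.41, ASNS 1.16, EIF4EBP1 1.02, CBS 1.02, PYCR1 0.99, NFIL3 0.91, STC2 0.90, CEBPB 0.88, GPT2 0.73, ATF3 0.68, SESN2 0.61, PCK2 0.50, CEBPG 0.49, SQSTM1 0.44, XPOT 0.44, ATF4 0.42, KLHL24 0.41 and ATF5 0.17. Of the genes named from other lists, the same test was passed by the eIF2α arm genes EIF2AK3 0.36, PPP1R15A 0.44 and EIF2AK1 0.19, by the amino acid transporters SLC7A5 0.88, SLC3A2 0.70 and SLC1A5 0.72, by the serine and one-carbon enzymes PSAT1 2.01, ALDH1L2 3.24 and PHGDH 0.85, by the aminoacyl-tRNA synthetases GARS1 0.56, WARS1 0.54 and AARS1 0.39. It was also passed by the ER chaperone and degradation genes HSPA5 1.24, HERPUD1 1.21 and CALR 0.67, by the p53 targets TNFRSF10B 0.19, XPC 0.24 and DDB2 0.26, by the hypoxia targets LDHA -0.42, PDK1 -0.51 and SLC2A1 -0.29, by the autophagy genes NBR1 0.32, WIPI1 0.82 and UVRAG 0.23.

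Over 248 sets of 4 libraries (the genes named, in each group), 16 had 1 library far from the other 3, by Dixon's test at the 95% level. Chance gives about 1 in 20 such sets. In high MYC DMSO replicate 3, the normalized counts of ATF4 (2356), CCPG1 (113), SQSTM1 (502) and AFG3L2 (1503) were far from the rest of the group. In medium MYC DMSO replicate 3, normalized counts far from the rest of the group were those of ATF4 (1623), CEBPB (33.3), JDP2 (176), ALDH18A1 (1123) and PHGDH (311). In medium MYC IMP1088 replicate 4, the normalized counts of ATF5 (2780.0) and VEGFA (569) were far from the rest of the group. In high MYC DMSO replicate 2, the normalized count of DDIT3 (56.2) was far from the rest of its group. In medium MYC DMSO replicate 4, the normalized counts of ASNS (281) and STC2 (33.6) were far from the rest of the group. In high MYC DMSO replicate 4, the normalized count of EIF2AK3 (657) was far from the rest of its group. In high MYC IMP1088 replicate 2, the normalized count of NBR1 (298) was far from the rest of its group. Medium MYC DMSO replicate 3 and high MYC DMSO replicate 3 recur in this list. In medium MYC DMSO replicate 3, ATF4, CEBPB, ALDH18A1 and PHGDH lay toward their inhibitor group and JDP2 away from it.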

How the results depend on the processing

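Counts of called ATF4 target genes stayed within 1.5 times the reported ones in each of the 5 comparisons under all 32 alternatives, the counts ranging from 8 to 12 (10 reported) for the inhibitor at high MYC, 19 to 27 (26) at medium MYC, 13 to 21 (19) for the difference in response, 22 to 32 (32) between MYC levels in DMSO and 22 to 32 (32) under IMP1088. Leaving out 1 library gave 8 to 12, 24 to 26, 18 to 20, 30 to 32 and 31 to 32. With the replicate number as a block (replicate block over all libraries) the counts were 11, 26, 18, 32 and 32. The mean residual correlation of same-numbered libraries was -0.07 at high MYC, -0.02 at medium MYC and 0.02 between the DMSO groups. High MYC DMSO replicate 4 and medium MYC DMSO replicate 4 had 0.24. Whether same-numbered libraries share a culture or batch cannot be told from so few libraries. The filter at a mean of 100, which leaves 22 of the 32 genes, moved the medians to 0.36 at medium MYC, 0.42 for the difference, -0.42 between MYC levels in DMSO (reversed from 0.49) and 0.047 under IMP1088. Quantile normalization moved the DMSO median to 0.25, and the GC correction, without and with the replicate block, the IMP1088 median to 0.66. Calls kept in every alternative that gave a value were 8 of 10, 23 of 26, 17 of 19, 28 of 32 and 31 of 32. No called log2 change of a single gene changed sign. Depth limits NUPR1, CTH, CHAC1, ADM2, GDF15 and VLDLR, which had few reads at high MYC.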

Other observations

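Lists of other stress pathways were counted in the same fit. Over all tested genes, 10.5% rose and 16.3% fell at high MYC, 11.7% rose and 14.6% fell at medium MYC, and the difference was called higher for 5.33% and lower for 3.31%, and counts near these shares are not results about a list. Of 16 p53 targets, 10 rose and 0 fell at high MYC, and 14 rose and 0 fell at medium MYC, with medians of 0.20 and 0.30. The difference between the responses was called for 3 of them, the death receptor gene TNFRSF10B at 0.19 (SE 0.04, adjusted p = 0.00383) and the DNA repair genes XPC at 0.24 (SE 0.07, adjusted p = 0.0253) and DDB2 at 0.26 (SE 0.08, adjusted p = 0.0327). The call of XPC was lost without high MYC DMSO replicate 1, high MYC IMP1088 replicate 1 or 2 or medium MYC IMP1088 replicate 3, and in DESeq2. That of DDB2 was lost in 15 of 32 alternatives, with an adjusted p of at most 0.0968, among them leaving out high MYC DMSO replicate 2 or 4, high MYC IMP1088 replicate 2 or 4, medium MYC DMSO replicate 1, 2 or 4, or medium MYC IMP1088 replicate 1, 2 or 4. Of 11 tested hypoxia targets, 0 rose and 5 fell at high MYC, and 0 rose and 8 fell at medium MYC. Among the 5, the fall of PDK1 (-0.15, limma adjusted p = 0.0358) was lost in 14 of 32 alternatives. The difference was called for 6, all more negative at medium MYC, among them lactate dehydrogenase LDHA at -0.42 (SE 0.05, adjusted p = 2.47e-06), pyruvate dehydrogenase kinase PDK1 at -0.51 (SE 0.07, adjusted p = 4.74e-05) and the glucose transporter SLC2A1 at -0.29 (SE 0.05, adjusted p = 0.0012).

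Of 11 tested NRF2 targets, which answer oxidative stress, 0 rose and 3 fell at high MYC, and 0 rose and 3 fell at medium MYC. NQO1, SRXN1 and TXN had differences of -0.34, 0.26 and -0.15, none called (limma adjusted p = 0.094, 0.123 and 0.14), although NQO1 was called without high MYC IMP1088 replicate 2 and SRXN1 without medium MYC DMSO replicate 4. Of 8 genes of mitochondrial protein stress, 0 rose and 2 fell at high MYC, and 2 rose and 1 fell at medium MYC, with no called difference in limma. HSPA9, DNAJA3 and AFG3L2 had differences of 0.10, 0.16 and 0.09 (limma adjusted p = 0.07, 0.0947 and 0.293), and HSPA9 was called in DESeq2, under quantile normalization and after the GC correction. Of 11 tested autophagy genes, 0 rose and 1 fell at high MYC, and 3 rose and 1 fell at medium MYC. The 1 that fell at high MYC was UVRAG (-0.19, limma adjusted p = 0.00406), not called at medium MYC (0.04, limma adjusted p = 0.557). NBR1, WIPI1 and UVRAG had called differences of 0.32, 0.82 and 0.23 (limma adjusted p = 0.00828, 0.00911 and 0.0293), and that of UVRAG was lost in 10 of 32 alternatives (adjusted p at most 0.0726), among them leaving out high MYC DMSO replicate 4, high MYC IMP1088 replicate 3 or 4, medium MYC DMSO replicate 4 or medium MYC IMP1088 replicate 2, 3 or 4.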
